A study of Homo sapiens with 26 samples.

Results

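The 46 genes described here encode proteins of the large (60S) subunit of the human ribosome. They were chosen by symbol: RPL followed by a number and, in some, the letter A, or RPLP0, RPLP1 and RPLP2. They are 46 of the 19478 transcripts in each of 4 tables of ribosome footprint counts, with 1 transcript per gene. The rule reads gene names alone.

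The cytosolic ribosome carries 1 copy of nearly every large-subunit protein, so the cell has to make these proteins in matched amounts. RPLP1 and RPLP2 are the exception: they bind RPLP0 as dimers and form the lateral stalk, which recruits translation factors. The mRNAs of these genes carry a 5′ terminal oligopyrimidine tract, through which growth signals control their translation as a group. Most have processed pseudogenes, intronless copies of the mRNA scattered over the genome, which makes the assignment of short reads difficult.

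The series holds 26 libraries from 3 human cell lines with no drug or genetic treatment named and asks, by its title, how removal of ribosomal RNA (rRNA) with a nuclease biases footprint counts. Cells were lysed with cycloheximide, RNase I left the fragments that ribosomes cover, and the libraries differed in how rRNA was removed. HEK293T, an embryonic kidney line with SV40 large T antigen, gave 2 libraries for no depletion, NEBNext, RiboCop and Ribo-Zero Gold, with a labelled range of 15 to 35 nt. K562, a line from a chronic myeloid leukaemia, gave a size-selection table, with 1 undepleted and 1 NEBNext library from 20 to 34 nt and 1 of each from 20 to 60 nt. A second K562 table, the kit table, held 2 libraries each for no depletion, FastSelect, riboPools, and riboPools eluted cold, then 1 each for Ribo-Zero Plus alone, with formaldehyde, with oligos and with both, all from 20 to 34 nt. HEK293FT, a relative of HEK293T, gave 1 undepleted library and 1 depleted with custom oligos, from 15 to 35 nt. NEBNext and Ribo-Zero Plus digest rRNA paired with DNA probes. Magnetic beads pull it out with Ribo-Zero Gold, RiboCop and riboPools, whereas FastSelect keeps it from being reverse transcribed. Both undepleted libraries of the K562 size-selection table also have a label for NEBNext, against their titles, and were placed by title. Nothing in the labels says that libraries of a group came from separate cultures, so p-values measure the spread between these libraries, which may be technical.

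Library totals ran from 46858 counts (undepleted, 20 to 60 nt, K562) to 5795774 (riboPools with cold elution), and every member exceeded 3 counts in every library. The lowest count of a member was 20, for RPL39 in the shallowest library. Summed counts of 9 erythroid genes (among them HBG1, HBG2 and GATA1) were 10920 to 11670 CPM (counts of a gene per 1000000 counts of its library) in undepleted K562 libraries, 3.26 CPM in HEK293T and 1.11 CPM in HEK293FT. Of 8 genes known in HEK293, VIM stood at 870.4 to 1049 CPM in the 3 lines. NEFL, NEFM and INA were at 0 in undepleted K562 libraries and at 15.8 to 343.6 CPM in the HEK293 lines, whereas EYA1 was at 0 in all of them and PAX2 at 4.17 CPM in HEK293T and 0 in HEK293FT.

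Large-subunit coding sequences are short. They ran from 75 nt in RPL41 to 1281 nt in RPL4, with a median of 474 nt against 1275 nt over all transcripts. Their median GC content was 50.8% and their median purine content 56.4%, against 52.9% and 52.0% over all transcripts. Shown are 4 of the 5 shortest coding sequences, because RPL39 and RPL37 passed with NEBNext in both tables and between the lines, RPL38 passed with NEBNext in K562, and RPL41 had the highest level per kilobase in HEK293T. They are spliced coding sequences without the stop codon, from GENCODE release 29 on GRCh38, read 5′ to 3′ on the gene's strand, with the start codon in capitals. The RPL41 gene lies on chromosome 12, 56116586 to 56117943, on the plus strand. RPL39 lies on chromosome X, 119786506 to 119791643, on the minus strand. RPL38 lies on chromosome 17, 74203653 to 74210655, on the plus strand. RPL37 lies on chromosome 5, 40825262 to 40835335, on the minus strand.
RPL41: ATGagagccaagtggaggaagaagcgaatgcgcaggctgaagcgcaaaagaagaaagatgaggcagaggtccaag
RPL39: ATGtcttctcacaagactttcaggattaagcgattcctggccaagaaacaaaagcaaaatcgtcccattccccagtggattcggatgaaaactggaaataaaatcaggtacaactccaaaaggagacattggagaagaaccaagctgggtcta
RPL38: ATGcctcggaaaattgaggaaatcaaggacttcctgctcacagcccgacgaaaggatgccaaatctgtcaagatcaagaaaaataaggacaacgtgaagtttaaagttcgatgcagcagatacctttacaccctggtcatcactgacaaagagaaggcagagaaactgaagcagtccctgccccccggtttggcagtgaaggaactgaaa
RPL37: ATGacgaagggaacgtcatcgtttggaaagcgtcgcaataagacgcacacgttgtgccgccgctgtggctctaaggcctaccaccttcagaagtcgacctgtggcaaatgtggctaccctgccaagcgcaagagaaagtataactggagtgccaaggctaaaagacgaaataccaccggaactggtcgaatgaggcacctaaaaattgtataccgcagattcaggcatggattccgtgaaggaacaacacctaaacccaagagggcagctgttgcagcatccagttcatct

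The RPL41 sequence encodes 25 residues, most of them in purine-rich codons for arginine and lysine, and 77.3% of its bases are purines, the highest share among the members. RPL39 has 51 codons and, at 42.5%, the lowest GC content of the 46.

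Processed copies could share reads with the members. The annotation names 716 processed copies of the 46 genes, with a median of 9.5 per gene, from 0 for RPL28 to 90 for RPL23A. For each member the coding sequence was split into every window of 28 nt, the length of a footprint. In the median member 81.5% of the windows also occurred without a mismatch in transcripts of other genes, and in 33 of 46 members more than 50% did. All windows of RPL41 and RPL39 did so, against 31.1% in RPL38, 49.6% in RPL37, 71.7% in RPL19 and 95.9% in RPL10. All windows of RPL17 and RPL36A also occur in the coding readthrough genes RPL17-C18orf32 and RPL36A-HNRNPH2. Neither the authors' handling of reads with several matches nor the counts on the copies was examined, so every level below may lack reads given to copies or hold reads taken from them.

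The 46 genes together took 6.40% to 6.69% of all counts in the 8 HEK293T libraries, 7.25% to 7.57% in the K562 size-selection table, 7.03% to 7.74% in the K562 kit table and 8.34% to 8.39% in HEK293FT. With NEBNext the share of the whole group in HEK293T overlapped that without depletion, at 6.44% and 6.64% against 6.40% and 6.66% in the undepleted libraries. In the K562 size-selection table the share was lower with NEBNext, at 7.25% (20 to 34 nt) and 7.44% (20 to 60 nt). The undepleted libraries there had 7.49% and 7.57% in the same order. The shares were not tested. The ratio of large-subunit to small-subunit protein counts moved. It was 1.55 and 1.59 in undepleted HEK293T and 1.39 and 1.40 with NEBNext. In the K562 size-selection table it was 1.48 and 1.52 undepleted and 1.34 and 1.43 with NEBNext. In both tables the NEBNext libraries lay below the undepleted ones without overlap. This ratio was not tested.

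Levels were first compared between genes per kilobase of coding sequence. In undepleted HEK293T the member levels covered a 6.16-fold range, from 1137 CPM per kilobase in RPL17 to 7004 in RPL41, with a median of 3140. In the undepleted libraries of the K562 kit table they ran from 1371 in RPL17 to 6988 in RPL37, a 5.10-fold range with a median of 3227. Over members, the SD of the log2 level was 0.57 in HEK293T and 0.52 in K562.

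RPL41, the smallest ribosomal protein, had the highest level per kilobase in HEK293T, at 7665 and 6342 in the 2 libraries. RPL39, a small protein at the peptide exit tunnel, came next with 4466 and 5920, followed by RPL35A with 3863 and 4226, RPL38 with 4325 and 3755, and RPL23A with 3970 and 4010. The means of these last 3 lay closer together than the 2 libraries of RPL35A or of RPL38, so their order is not resolved. At the low end stood RPL17 with 1223 and 1051, RPL12 with 1094 and 1277, RPLP0 with 1288 and 1124, RPL30 with 1280 and 1643, and RPL3 with 1509 and 1434. The 3 lowest members overlapped in their library values.

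In undepleted K562 the 5 highest were RPL37 with 6885 and 7090, RPL41 with 5789 and 6112, RPL10 with 5613 and 5561, RPL32 with 4862 and 4984, and RPL13A with 4858 and 4791. RPL37 lay above every other member in both libraries. The 5 lowest were RPL17 with 1343 and 1399, RPLP0 with 1535 and 1517, RPL36A with 1731 and 1518, RPL12 with 1717 and 1656, and RPL21 with 1952 and 1995. RPL17, RPLP0 and RPL12 were thus among the 5 lowest in both lines. RPL41 was alone among the 5 highest of both.

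By CPM, which favours long coding sequences, the order differed. RPL5 ranked 1st in HEK293T and RPL4 ranked 1st in K562. RPL41, 1st per kilobase in HEK293T, ranked 45th of 46 by CPM there and last in K562. How length is treated therefore changed the ranks. Footprints near the start and stop codons weigh more in a short sequence, and subtracting 45 nt (15 codons) from each length raised the SD over members to 0.68 in HEK293T and 0.61 in K562. Without length scaling the SD was 0.67 and 0.75. Across members, the level per kilobase and the coding length had a Spearman correlation of -0.44 in HEK293T and -0.23 in K562 (46 members of the same libraries, a description). Since the level is itself divided by the length, the 2 measures are not independent.

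In the stalk, RPLP1 and RPLP2 lay above RPLP0 per kilobase in every undepleted library of both tables. In HEK293T RPLP0 had 1288 and 1124 CPM per kilobase, RPLP1 3192 and 3106, and RPLP2 2850 and 3532. In the K562 kit table RPLP0 had 1535 and 1517, RPLP1 2150 and 2018, and RPLP2 3319 and 3508. RPLP0, the base of the stalk, ranked 44th of 46 per kilobase in HEK293T and 45th in the K562 kit table. On the log2 scale its level stood at -1.36 and -1.09 relative to the member median. RPLP1 stood at 0.03 and -0.64, and RPLP2 at 0.04 and 0.07. RPL5 and RPL11, which enter the ribosome together with 5S rRNA, had relative levels of 0.02 and 0.07 in HEK293T and of -0.34 and 0.41 in K562. RPL22, a peripheral protein that also binds other RNAs, stood at -1.07 in HEK293T and -0.32 in K562.

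**Figure D1:**
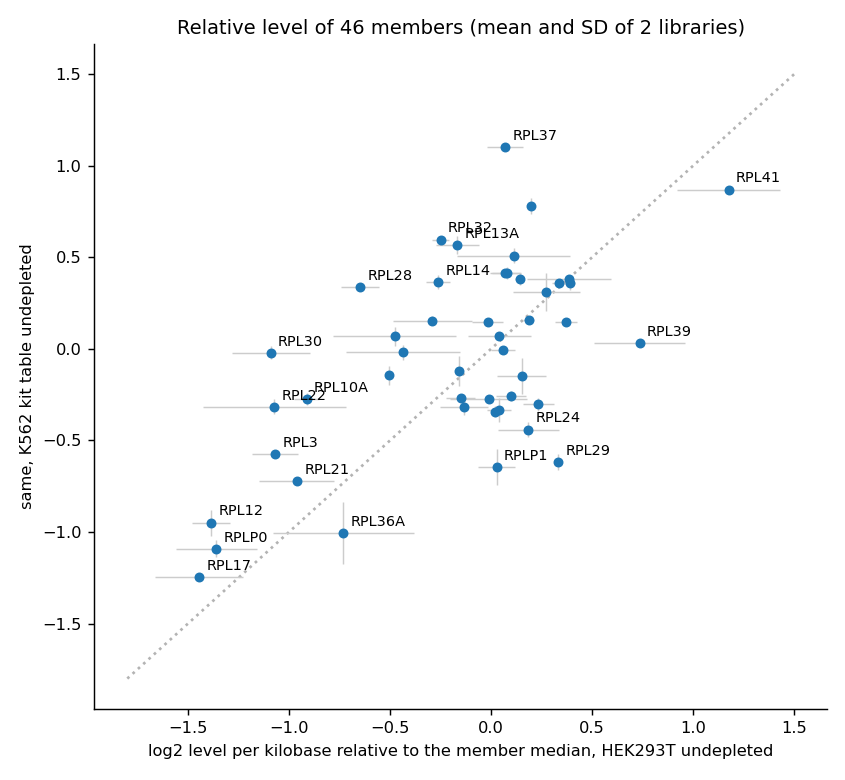
Relative level of the 46 genes in undepleted HEK293T (horizontal axis) and in undepleted K562 of the kit table (vertical axis), as log2 of the level per kilobase over the member median. Points and bars are the mean and SD of 2 libraries, and the dotted line marks equal values: RPL37, RPL30 and RPL28 lie above it and RPL29, RPL39 and RPLP1 below it.

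Relative levels repeated closely between libraries of a line and between HEK293T and HEK293FT, and less closely between these lines and K562. Over the 46 members, Pearson's r of the log2 relative level was 0.99 between the undepleted libraries of the K562 kit table and 0.93 between those of HEK293T. It was 0.92 between the K562 libraries of 20 to 34 nt and 20 to 60 nt, 0.94 between HEK293T and HEK293FT and 0.97 between the K562 size-selection library of 20 to 34 nt and the K562 kit table. Between HEK293T and K562 of the kit table it was 0.61, and the SD of the log2 difference was 0.49, against 0.22 between the HEK293T libraries and 0.06 between the K562 libraries. These values describe the points and carry no p, since the members of a library share its depth and preparation. The line, its experiment and the labelled size range (15 to 35 nt against 20 to 34 nt) cannot be told apart.

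The undepleted libraries of the lines were compared with edgeR's quasi-likelihood test over 7304 genes, with Benjamini-Hochberg adjustment, and a gene passed at an adjusted p under 0.05. Of the 46 members 28 were higher in K562 and 5 lower. Of all genes tested 39.1% passed, and of the 371 genes counted at least as deeply as the lowest member 75.2% did, so the members' share of 71.7% was near that of genes of their depth. The numbers of members higher and lower depend on the scaling and on the kidney line. The median log2 difference of the members was 0.35, the same as over genes of their depth (0.35), and 0.04 over all genes. With scaling to the total count it was 0.15 against -0.15 over all genes, with 22 members higher and 11 lower. With scaling to the members' own sum 14 were higher and 16 lower. That scaling makes their total equal in every library, so its split cannot show a direction of the group. With the HEK293FT library in place of HEK293T, an alternative chosen after seeing the data, 18 were higher and 22 lower.

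RPL30, a small protein at the interface of the subunits, showed the largest difference, with 1069 and 1144 CPM in K562 against 442 and 567 CPM in HEK293T (log2 difference 1.27 ± 0.12 SE, edgeR adjusted p 8.75e-25). RPL37, a zinc-binding protein, had 2004 and 2063 CPM against 875 and 1017 CPM (1.25 ± 0.09, adjusted p 1.07e-39). RPL28 had 1672 and 1708 CPM against 750 and 873 CPM (1.21 ± 0.10, adjusted p 2.11e-32). RPL32 had 1969 and 2019 CPM against 1042 and 1062 CPM (1.08 ± 0.09, adjusted p 2.34e-31). In all 4 the libraries of the lines lay far apart, and all 4 passed in the same direction under each of the 11 alternatives. The libraries of the lines did not overlap in 38 of the 46 members. With the HEK293FT library in place of HEK293T the difference was smaller, at 0.67 for RPL28 and 0.55 for RPL32. RPL30 (612.8 CPM) and RPL37 (1173 CPM) also stood higher in the undepleted HEK293FT library than in HEK293T, though below K562.

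RPL22 was also higher in K562 than in HEK293T, by 1.005 ± 0.12, as was RPL10 (0.82 ± 0.07), RPL11 (0.57 ± 0.08) and RPLP0 (0.52 ± 0.09). In the undepleted HEK293FT library RPL10 stood at 3530 CPM and RPL11 at 2173 CPM, near the K562 means of 3587 and 2303 CPM. RPL22 (659.4 CPM) and RPLP0 (1149 CPM) stayed below the K562 means of 1003 and 1452 CPM. RPL5 (-0.13 ± 0.07), RPL38 (0.25 ± 0.11) and RPL41 (-0.06 ± 0.14) did not pass.

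RPL29 led the members that were lower in K562, with 1015 and 1008 CPM against 1808 and 1903 CPM (-0.72 ± 0.08, adjusted p 1.71e-16). RPLP1 had 735 and 690 CPM against 1091 and 1062 CPM (-0.43 ± 0.10, edgeR adjusted p 0.00017), while its partner RPLP2 was higher by 0.24 ± 0.09 (adjusted p 0.031). In the undepleted HEK293FT library RPLP1 had 1102 CPM and RPLP2 1507 CPM. Against that line RPLP2 was therefore lower in K562, at 1145 and 1210 CPM. RPL24 differed by -0.38 ± 0.08 (adjusted p 5.49e-05), and with the K562 size-selection library in place of the kit table by -0.35, with no call (adjusted p 0.054). RPL39 had 496 and 521 CPM against 683 and 906 CPM (-0.51 ± 0.12, adjusted p 9.66e-05). Without the second undepleted HEK293T library its difference was -0.24 and no longer passed (adjusted p 0.37), as with the size-selection library (-0.35, adjusted p 0.16).

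A similar pattern of relative levels appeared in another pair of libraries, neither of them among these, with the same K562 line, the related HEK293FT line and the same labelled size ranges. The difference of the log2 relative level between the K562 size-selection library of 20 to 34 nt and the HEK293FT library correlated with that between the K562 kit table and HEK293T at Pearson's r 0.86 (Spearman 0.88, 46 members, a description). The sign was the same for 40 of 46 members, and for all 15 with a difference over 0.5. RPL37 differed by 1.01 and 1.03, RPL30 by 0.93 and 1.07, RPL22 by 1.09 and 0.76, and RPL29 by -0.77 and -0.95 in the respective pairs.

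Kit effects were tested next. In HEK293T, NEBNext changed 12 of 46 members, 5 higher and 7 lower, beside 3.24% of the 4410 genes tested and 19.7% of the 355 genes at least as deep as the lowest member. The members' own share was 26.1%. Their median log2 change was 0.01 and that of all genes 0.00, and the SD of the change was 0.38 over members and 0.35 over genes of their depth. The SD over members of the log2 relative level was 0.56 and 0.60 in the undepleted libraries and 0.69 and 0.74 with NEBNext.

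RPL32 fell the most, from 1042 and 1062 CPM to 555 and 423 CPM (log2 change -1.13 ± 0.15 SE, edgeR adjusted p 3.46e-11), which is 2.18-fold lower. RPL37 went from 875 and 1017 CPM to 563 and 507 CPM (-0.83 ± 0.15, adjusted p 5.32e-06). RPL19, a long helical protein that bridges the subunits, went from 1791 and 2046 CPM to 1163 and 1144 CPM (-0.73 ± 0.11, adjusted p 5.7e-09). For these 3 genes both NEBNext libraries lay below every other library of the table. The NEBNext and undepleted libraries did not overlap in 31 of the 46 members. RPL12, at the base of the stalk, went from 542 and 632 CPM to 353 and 388 CPM (-0.65 ± 0.18, adjusted p 0.017), and it no longer passed without the first NEBNext (-0.59), the second NEBNext (-0.74) or the second undepleted library (-0.51). RPL21, RPL36 and RPL8 also fell, by 0.58, 0.51 and 0.30 on the log2 scale. Each lost its call without the first NEBNext or the second undepleted library, and RPL21 also without the first undepleted one; RPL8 then stood at -0.20 without the second undepleted library. DESeq2 called 5 members higher and 3 lower, without RPL12, RPL21, RPL36 and RPL8.

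RPL34 rose the most, from 933 and 1010 CPM to 1388 and 1611 CPM (0.65 ± 0.12, adjusted p 6.69e-06). Without the second NEBNext library its change was 0.51, with an adjusted p of 0.054. RPL39 went from 683 and 906 CPM to 1005 and 1328 CPM (0.58 ± 0.13, adjusted p 0.00069), with the groups apart but wide. It did not pass without the second NEBNext library (0.32, adjusted p 0.5) or the first undepleted one (0.41, adjusted p 0.18). RPL35A went from 1275 and 1394 CPM to 1883 and 2029 CPM (0.57 ± 0.10, adjusted p 9.54e-06), and RPL9 from 1550 and 1362 CPM to 2130 and 2049 CPM (0.54 ± 0.10, adjusted p 1.67e-05). RPL10, a protein added late in 60S assembly near the tRNA sites, went from 2216 and 2333 CPM to 3233 and 3058 CPM (0.48 ± 0.09, adjusted p 6.67e-06). RPL10, RPL19, RPL32, RPL35A, RPL37 and RPL9 passed in all 11 alternatives.

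The stalk and 5S-binding proteins did not pass in HEK293T: RPLP0 changed by 0.21 ± 0.12, RPLP1 by 0.21 ± 0.12, RPLP2 by 0.07 ± 0.12, RPL5 by -0.09 ± 0.09 and RPL11 by 0.17 ± 0.10. RPL22 (0.37 ± 0.16), RPL38 (-0.41 ± 0.15) and RPL41 (-0.38 ± 0.19) did not pass either. At these depths the median SE of a member was 0.11, and the SEs of RPL22, RPL38 and RPL41 were larger. Not passing is therefore no evidence that a level was unchanged.

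In K562, NEBNext also changed 12 of 46 members, 7 higher and 5 lower, which is 26.1%, beside 2.72% of the 3715 genes tested and 13.8% of the 405 genes of the members' depth. Scaled to the total count, 4 were higher and 5 lower. The size ranges stood in for replicates, which leaves 1 residual degree of freedom. The count rests on single libraries: it was 0 without the NEBNext library of 20 to 34 nt, 27 without that of 20 to 60 nt, 2 without the undepleted library of either range, and 2 with DESeq2. Each fit with 3 libraries had no term for size. The members' median was -0.10 and that of all genes 0.00, and the SD was 0.44 over members and 0.60 over genes of their depth.

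RPL38, a protein at the surface of the subunit, fell the most, from 883 CPM (20 to 34 nt) and 704 CPM (20 to 60 nt) to 326 and 521 CPM in the same order (log2 change -1.05 ± 0.19 SE, edgeR adjusted p 4.57e-06). It went down 2.07-fold, but by 0.65 and 0.68 on the log2 scale, and with no call, without the NEBNext or the undepleted library of 20 to 34 nt. RPL37 went from 1882 and 2390 CPM to 1013 and 1202 CPM (-0.88 ± 0.15, adjusted p 9.2e-07), RPL29 from 1009 and 896 CPM to 546 and 651 CPM (-0.69 ± 0.18, adjusted p 0.0069), and RPL19 from 2386 and 2561 CPM to 1423 and 1713 CPM (-0.63 ± 0.14, adjusted p 0.0012). In each of these genes both NEBNext libraries lay below both undepleted ones. The groups did not overlap in 35 of the 46 members, so such separation was common here. RPL35 fell by 0.55 on the log2 scale, with an adjusted p of 0.048.

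Higher with NEBNext in K562 were RPL18, which went from 1530 and 1430 CPM to 2484 and 2724 CPM (0.84 ± 0.15, adjusted p 2.93e-06), RPLP0, from 1325 and 1280 CPM to 2280 and 1702 CPM (0.71 ± 0.15, adjusted p 0.00049), and RPLP2, from 1141 and 1131 CPM to 1854 and 1562 CPM (0.67 ± 0.16, adjusted p 0.0019). The third stalk protein, RPLP1, had -0.25 ± 0.18 and did not pass. RPL39 went from 568 and 427 CPM to 734 and 981 CPM (0.66 ± 0.19, adjusted p 0.026), and RPL10 from 3453 and 3265 CPM to 4832 and 4156 CPM (0.48 ± 0.13, adjusted p 0.018). RPL30 and RPL27 rose by 0.58 and 0.49. Without the NEBNext library of 20 to 34 nt RPLP0 stood at 0.42 and RPL30 at 0.97, and without the undepleted library of that range RPL39 stood at 1.09 and RPL35 at -0.17, with no call. RPL18 passed in 9 of 10 alternatives, RPL37 in 8 and RPL38 in 7, RPL19, RPLP0 and RPLP2 in 6, RPL10 in 5, RPL29, RPL30 and RPL39 in 4, and RPL27 and RPL35 in 3. RPL5 (-0.18 ± 0.14), RPL11 (0.16 ± 0.14), RPL22 (0.36 ± 0.16) and RPL41 (-0.33 ± 0.20) did not pass.

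**Figure D2:**
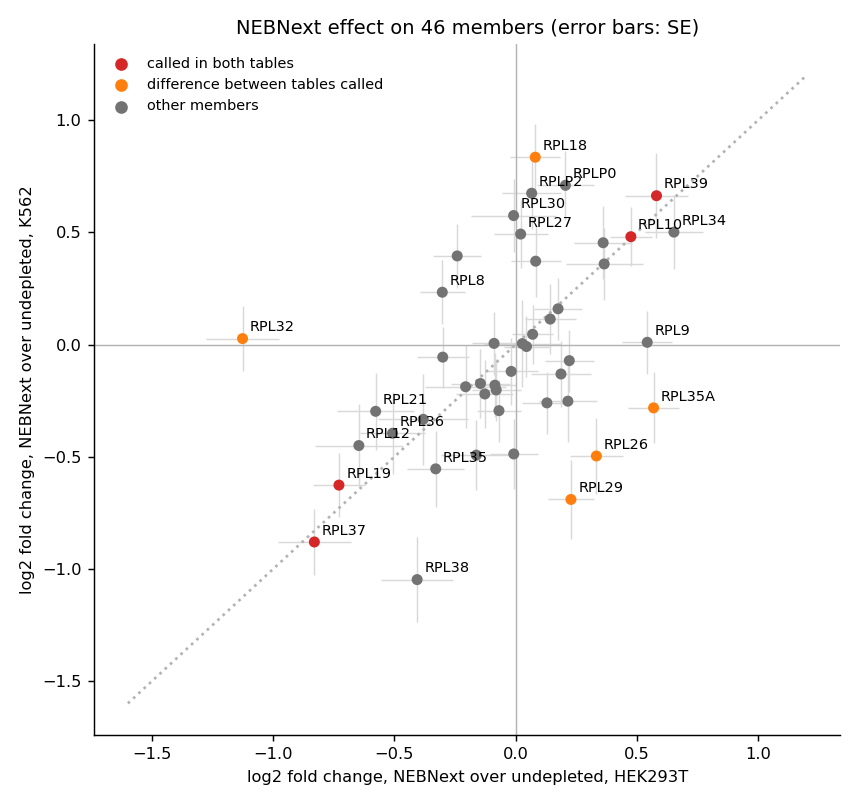
Log2 fold change of the 46 genes with NEBNext in HEK293T (horizontal axis) and in K562 (vertical axis), with SE bars and a dotted line of equal change. RPL10 and RPL39 lie above 0 and RPL19 and RPL37 below 0 in both tables, while RPL32 lies at -1.13 in HEK293T and 0.03 in K562.

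The NEBNext effects of the tables come from different libraries throughout and were set side by side. Across the 46 members their Pearson correlation was 0.47 (Spearman 0.46, a description), and 33 had the same sign. Of the 12 members that passed in each table, 4 passed in both (33.3% of each list, where 26.1% of all members passed in either table), all with the same sign: RPL10 and RPL39 higher, RPL19 and RPL37 lower. RPL37 changed by -0.83 and -0.88, RPL19 by -0.73 and -0.63, RPL39 by 0.58 and 0.66, and RPL10 by 0.48 in both. The test of the difference between tables did not pass for these 4, with differences between -0.03 and 0.12 and an SE between 0.15 and 0.25. They were picked for passing in both tables, so a small difference follows in part from that choice and is no sign of agreement. The overlap of 33.3% is near the 26.1% of all members and is not read as agreement either.

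**Figure D3:**
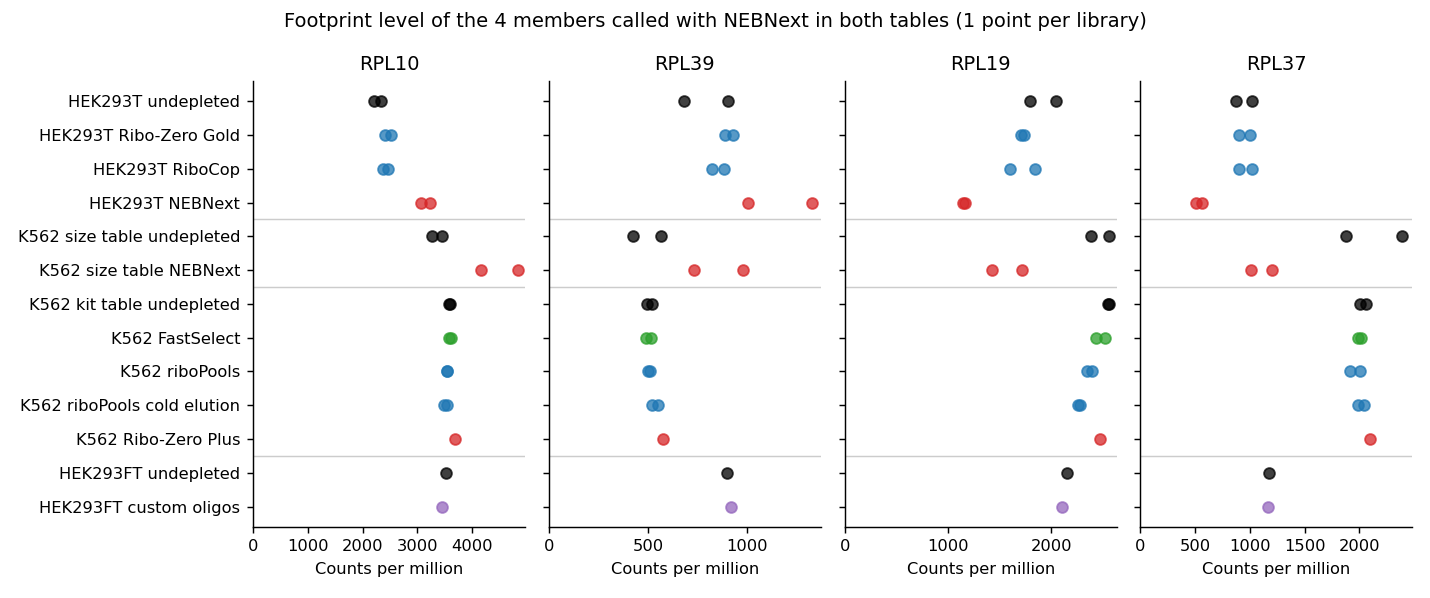
CPM of RPL10, RPL39, RPL19 and RPL37 in each library, by table and kit, 1 point per library, with the Ribo-Zero Plus libraries that had additions left out. Red NEBNext points lie to the right of the black undepleted points of their table for RPL10 and RPL39 and to the left for RPL19 and RPL37. The other kits lie closer to the undepleted points of their table, with RPL19 lower with both riboPools kits and RPL39 higher with Ribo-Zero Plus.

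The difference between the NEBNext effects was itself tested in 1 fit of 8 libraries. It passed for 5 of 46 members (10.9%), 2 with a higher and 3 with a lower value in K562, beside 0.296% of 4736 genes tested and 2.89% of the 380 genes of the members' depth. Scaled to the total count, 1 was higher and 3 lower. RPL32 led, with -1.13 ± 0.15 in HEK293T, 0.03 ± 0.14 in K562 and a difference of 1.15 ± 0.22 (edgeR adjusted p 0.0038). In K562 its libraries overlapped, with 1976 and 1729 CPM undepleted against 1539 and 2459 CPM with NEBNext. RPL18 had 0.08 and 0.84 (difference 0.77 ± 0.18, adjusted p 0.028), RPL29 0.23 and -0.69 (-0.91 ± 0.20, adjusted p 0.011), RPL35A 0.57 and -0.28 (-0.83 ± 0.19, adjusted p 0.019) and RPL26 0.33 and -0.50 (-0.80 ± 0.20, adjusted p 0.04). Of the members that did not pass, RPL13 had a difference of 0.66, RPLP2 of 0.63 and RPL38 of -0.63. The count was 0 without the first undepleted HEK293T library, 1 without the second, 2 without the second NEBNext library and 0 with DESeq2. Whether line or experiment sets the difference cannot be told apart.

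Ribo-Zero Plus, the other nuclease kit, had 1 library without additions. It was assumed to vary like the 4 replicated groups of its table, so its calls have no replicate check of their own. Against the undepleted libraries 11 of 46 members passed, 5 higher and 6 lower, beside 20.6% of 10078 genes tested and 21.1% of the 408 genes of the members' depth. The members' 23.9% is near both. DESeq2 called 2 members, and a fit of all 12 libraries 24, 2 higher and 22 lower. Scaled to the total count, 4 were higher and 8 lower. The fit of all 12 libraries averages the Ribo-Zero Plus libraries with and without additions, so its values are not those of the plain kit. The changes in the plain library were small, from -0.16 to 0.24 on the log2 scale, with an SD over members of 0.10. The median SE was 0.04 at this greater depth.

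RPL22 had 1172 CPM with Ribo-Zero Plus against 1007 and 1000 CPM undepleted (0.24 ± 0.05, edgeR adjusted p 5.38e-05), and RPL18 had 1647 against 1484 and 1465 CPM (0.18 ± 0.04, adjusted p 0.0006). Both passed in all 9 alternatives. RPL39 had 578.2 CPM against 496 and 521 CPM (0.20 ± 0.06) and passed, so it was higher with NEBNext in 2 tables and in the 1 plain Ribo-Zero Plus library. In the Ribo-Zero Plus libraries with additions its log2 ratio to the undepleted mean was 0.02 with formaldehyde, -0.47 with oligos and -0.44 with both. Its call was lost without the first undepleted library (0.17). In the fit of all 12 libraries, a mean over libraries with and without additions, its value was -0.27. RPLP2 (0.12) and RPL13A (0.11) also passed, and stood at -0.03 and -0.06 in the fit of all 12 libraries.

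RPL17 had 669.0 CPM against 742 and 772 CPM (-0.16 ± 0.06, adjusted p 0.031) and RPL31 had 1538 against 1673 and 1801 CPM (-0.16 ± 0.04, adjusted p 0.0023). RPL32, RPL12, RPL26 and RPL13 fell by 0.15, 0.15, 0.14 and 0.11. Without the second undepleted library 6 members passed in all, and RPL12, RPL13, RPL13A, RPL17, RPL26 and RPL31 were not among them. Without the first, RPL12 and RPLP2 (0.08) also lost their call. RPL41 (-0.15) and RPL36A (-0.15) did not pass. RPL10 (0.05 ± 0.03), RPL19 (-0.03 ± 0.03) and RPL37 (0.06 ± 0.04), which had changed with NEBNext in both tables, did not pass with Ribo-Zero Plus. RPL38, lowered by NEBNext in K562, had 0.12 ± 0.05 and did not pass. Whether the kits differ in these genes was not tested, since they were used in separate experiments.

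The Ribo-Zero Plus and NEBNext effects, from separate libraries, were set side by side. Pearson's r was 0.35 with NEBNext in HEK293T, with 26 of 46 members of the same sign, and 0.21 with NEBNext in K562, with 21 of 46 (descriptions). Of the 12 members called with NEBNext in HEK293T 10 had the same sign with Ribo-Zero Plus, and of the 12 called in K562 6 did. RPL12, RPL32 and RPL39 passed with the same sign with Ribo-Zero Plus and with NEBNext in HEK293T. RPL18, RPL39 and RPLP2 did so with Ribo-Zero Plus and with NEBNext in K562. Each overlap was near the share of all members that passed with the other kit, so it is not read as agreement between the kits.

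**Figure D4:**
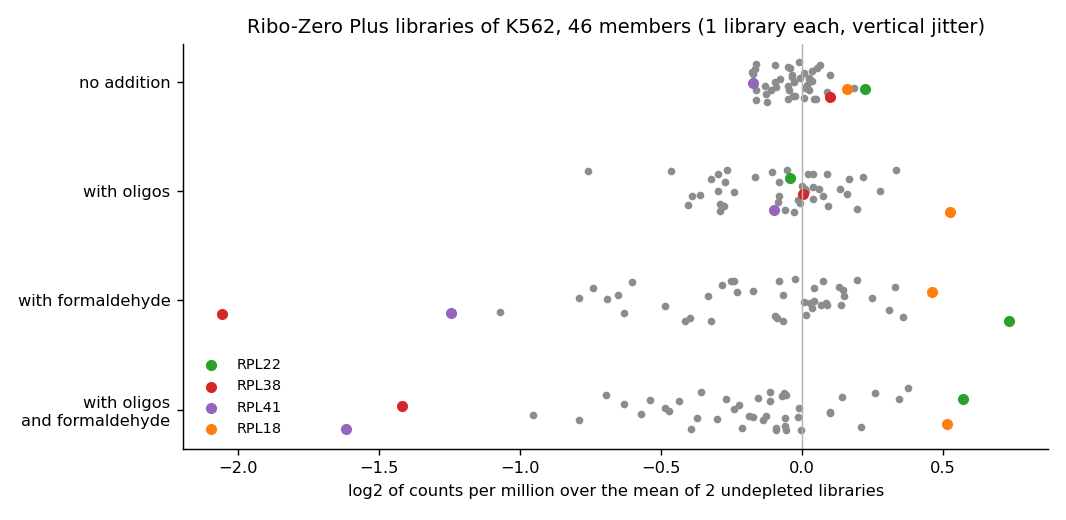
Log2 of the CPM of the 46 genes in each of 4 Ribo-Zero Plus libraries over the mean of the 2 undepleted libraries, 1 point per gene and 1 library per row. Values span -0.18 to 0.22 without additions, and RPL38 and RPL41 lie far to the left in both libraries with formaldehyde.

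The 3 Ribo-Zero Plus libraries with additions were shallow, with 116742 to 184722 counts against 1840190 in the plain one, with 1 library each, and they were left out of the fit and not tested. RPL38 and RPL41 had the lowest ratios to the undepleted mean in both libraries with formaldehyde. Longer members were also low, among them RPL28 (log2 ratio -0.69 with formaldehyde and -0.95 with both additions), RPL31 (-0.63 and -0.70) and RPL23A (-0.74 and -0.63). Above the undepleted mean lay 21 members with formaldehyde and 9 with both additions. RPL38 had 214.1 CPM (25 counts) with formaldehyde and 333.0 CPM (55 counts) with formaldehyde and oligos, against 893.2 CPM with oligos alone, 955.9 CPM with the plain kit and a mean of 891.3 CPM undepleted. RPL41 had 188.4 CPM (22 counts) and 145.3 CPM (24 counts) in the formaldehyde libraries, against 416.8 CPM with oligos alone, 395.6 CPM plain and 446.3 CPM undepleted. RPL39, between them in length, had 514.0 and 375.4 CPM with formaldehyde and 368.1 CPM with oligos alone, against 508.6 CPM undepleted, and so did not separate by formaldehyde. RPL22 was higher in both formaldehyde libraries, at 1670 and 1490 CPM against 974.4 CPM with oligos alone and 1003 CPM undepleted. RPL18 was higher in all 3, at 2030, 2122 and 2107 CPM, against 1475 CPM undepleted. The SD over members of the log2 ratio to the undepleted mean was 0.10 in the plain library, 0.23 with oligos, 0.49 with formaldehyde and 0.42 with both. The part of counting error in this spread was not tested.

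With the bead kits and FastSelect 2 calls were made among the members, both with cold elution of riboPools. Ribo-Zero Gold changed 0 of 46 members, beside 0.068% of all genes tested and 0.563% of genes of the members' depth, and 0 members had an unadjusted p under 0.05. RiboCop changed 0 members, beside 0.0% of both sets, with 2 at an unadjusted p under 0.05. DESeq2 called 0 with either kit. Their largest member changes were 0.21 (RPL34), 0.17 (RPL39), 0.13 (RPLP1) and 0.12 (RPL9) and -0.26 (RPL41), -0.25 (RPL28), -0.17 (RPL19) and -0.16 (RPLP2) for Ribo-Zero Gold. For RiboCop, changes included 0.23 (RPL36A), 0.17 (RPL22) and 0.13 (RPL37A) and -0.36 (RPL17), -0.29 (RPL30), -0.17 (RPL27A) and -0.15 (RPL19). The SD of the log2 change over members was 0.11 for both, against 0.38 for NEBNext in the same table. The 3 comparisons share their undepleted libraries.

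**Figure D5:**
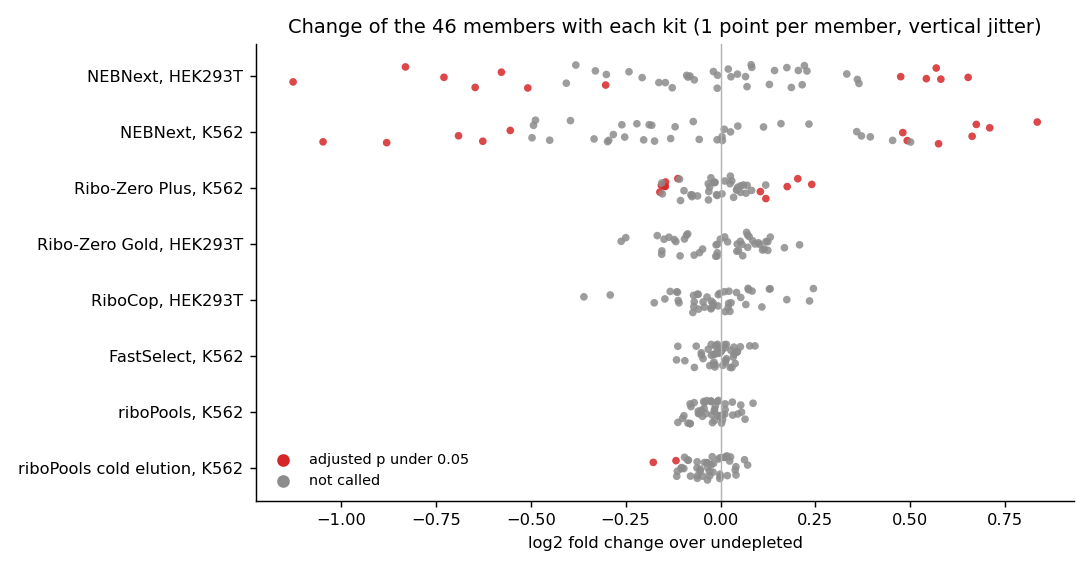
Log2 fold change of each of the 46 genes over the undepleted libraries of its table, 1 row per kit and 1 point per gene, with genes at an adjusted p under 0.05 in red. NEBNext spreads the genes from -1.13 to 0.65 in HEK293T and from -1.05 to 0.84 in K562, and the points of the bead kits and FastSelect lie closer to 0, down to -0.36.

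In the K562 kit table, with more counts per library, FastSelect changed 0 of 46 members (0.0198% of all genes, 0.0% at the members' depth, 4 members at an unadjusted p under 0.05, 0 with DESeq2). riboPools changed 0 (0.0794% and 1.47%, 10 members at an unadjusted p under 0.05, 0 with DESeq2). riboPools with cold elution changed 2, both lower (0.258% and 4.66%). The SDs over members were 0.04, 0.05 and 0.05. RPL19 was the lowest member with both riboPools kits. It had 2551 and 2556 CPM undepleted, 2392 and 2348 CPM with riboPools (-0.11 ± 0.03, edgeR adjusted p 0.057) and 2259 and 2274 CPM with cold elution (-0.18 ± 0.03, adjusted p 1.05e-07). The cold elution value passed in 11 of 12 alternatives, the exception being the fit of all 12 libraries. RPL28 fell by 0.12 with cold elution (adjusted p 0.049) and passed in 2 of 12 alternatives. The 4 largest values with each kit were at most 0.09. With FastSelect the lowest were RPL27A (-0.12), RPL26 (-0.11), RPL30 (-0.09) and RPL12 (-0.07), and the highest with cold elution was RPL39 (0.07). The 4 kit comparisons of this table share their undepleted libraries.

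In HEK293FT, custom oligos went with small differences. The log2 ratio of CPM had a median of 0.01 and ran from -0.18 (RPL22) to 0.13 (RPL34), with an SD of 0.06. There is 1 library per group, so no test was made. The 95% interval for counting error excluded 0 for 11 of 46 members (23.9%), 7 higher and 4 lower, beside 4.87% of the 11659 genes with 10 or more counts and 17.7% of the 266 genes of the members' depth. RPL22 had 581.4 CPM with oligos and 659.4 CPM without (interval of the log2 ratio -0.31 to -0.05), RPL41 715.8 and 780.4 CPM (-0.24 to -0.01), RPL34 1080 and 986.9 CPM (0.03 to 0.23) and RPL32 1557 and 1425 CPM (0.04 to 0.21).

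Features of the coding sequence followed the effects of the nuclease kits weakly. Over 46 members, the log2 change with NEBNext had a Spearman correlation of -0.30 with GC content in HEK293T and -0.06 in K562. With purine content the values were -0.13 and -0.28, with coding length 0.01 and 0.13, and with the number of processed copies 0.05 and -0.23. With the share of windows found in other genes they were 0.14 and -0.06. These are descriptions without a p. The 5 genes higher with NEBNext in HEK293T had a median GC content of 45.6%, and the 7 lower 51.9%; in K562 the higher and lower genes had 54.2% and 54.3%.

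Related gene lists behaved as follows with NEBNext. Of 32 small-subunit ribosomal protein genes 10 were higher and 1 lower in HEK293T, with a median log2 change of 0.05, and 4 higher and 3 lower in K562, with a median of 0.17. RPS13 rose by 0.999 ± 0.12 and RPS24 fell by 0.85 in HEK293T, and in K562 RPS29 rose by 1.72 ± 0.18. Of 16 other genes listed for terminal oligopyrimidine mRNAs, mostly translation factors, 0 were higher and 2 lower in HEK293T, led by NPM1, a nucleolar chaperone (-0.49), and 1 was higher in K562 (EIF3L, 0.75). Of 8 large-subunit paralogs outside the rule, of which 7 and 5 could be tested, 0 passed in HEK293T and 1 was lower in K562, RPL36AL (-1.04). Of 32 large-subunit assembly factors, 32 and 30 of which were tested, 0 passed in either table. Medians for the last 3 lists were -0.04, -0.07 and -0.05 in HEK293T and -0.09, -0.39 and -0.06 in K562, beside 0.00 over all genes.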

How the data were processed

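The authors deposited whole-number footprint counts per coding sequence, 1 transcript per row, in 4 tables, per the file headers. The submitters' processing notes name CASAVA 1.8, STAR and GRCh38/hg38; annotation, treatment of reads with several matches and duplicate handling are not given in the sources used here. PCR copies of 1 molecule were not told apart, so intervals cover counting error only.

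Samples were grouped by title. Members and other lists were chosen with earlier results of these data known. The test was that of edgeR 4.0.16, run in R 4.3.3, on counts: TMM scaling, filterByExpr at a minimum count of 10, the quasi-likelihood test and Benjamini-Hochberg adjustment over all genes of a fit. HEK293T used all 8 libraries. The K562 size-selection fit had additive terms for size and depletion. The K562 kit fit used 9 libraries, without the 3 Ribo-Zero Plus libraries with additions, and HEK293FT was not tested. Each SE was taken from the log2 fold change and its F statistic. Levels per kilobase divide CPM by coding length from GENCODE release 29 (GRCh38), which held the same transcript version for 40 members and another for 6. It may not be the authors' annotation.

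Named members are the 4 with the largest and smallest change in each comparison (mean count of 50 or more), the 5 highest and lowest per kilobase in HEK293T and K562, those passing with NEBNext in both lines, and a preset list (RPLP0, RPLP1, RPLP2, RPL5, RPL10, RPL11, RPL22, RPL38, RPL39 and RPL41). Other members that passed, and RPL4 and the genes at the top by CPM, were named after their values were seen. Alternatives were other scalings, no filter, DESeq2 1.42.0, other sets of libraries, the replicate number as a block and each library left out. On simulated data, 200 genes with a mean count of 50 or more were given a log2 change of 1, with spread drawn from the fitted dispersions. The test recovered 89% of the changes in the NEBNext comparison of HEK293T (4175 genes) and 89.5% in that of K562 (3421). It recovered 83.5% for Ribo-Zero Plus (9834) and 78.5% for the difference between tables (4116). Most changes of members were smaller than 1, so these shares do not carry over to them. A few results are not reported here.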

Additional observations from a re-analysis of the deposited data

Results flagged for a closer look

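The effect of NEBNext differed between the K562 and HEK293T tables for 5 members by the test of the difference itself (edgeR quasi-likelihood test, K562 minus HEK293T, log2): 1.15 for RPL32, 0.77 for RPL18, -0.80 for RPL26, -0.83 for RPL35A and -0.91 for RPL29. Their adjusted p-values were 0.0038, 0.028, 0.04, 0.019 and 0.011. RPL32 and RPL35A had passed in HEK293T alone, RPL18 and RPL29 in K562 alone and RPL26 in neither. RPL32 passed in 6 of 9 alternatives, RPL18 and RPL29 in 5, RPL35A in 4 and RPL26 in 3, with the sign kept in each. Depth differed between the tables, and its part in these differences was not tested.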

How the results depend on the processing

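With DESeq2 the counts of members passing fell to 2 for NEBNext in K562, 2 for Ribo-Zero Plus, 1 for riboPools with cold elution and 0 for the difference between NEBNext effects. NEBNext in K562 gave 6 without a size term, and 0 to 27 with 1 library left out. riboPools gave 1 with DESeq2 size factors. Cold elution gave 1 with total count scaling, with scaling to the members' sum, without the filter and with only both groups in the fit, 0 with all 12 libraries, and 1 to 2 with 1 library left out. Ribo-Zero Plus gave 24 (2 higher, 22 lower) with all 12 libraries and 6 to 9 with an undepleted library left out. The difference between NEBNext effects gave 0 to 5 with 1 library left out and, without the filter, 4, all higher. NEBNext in HEK293T gave 8 to 14 in every alternative, K562 against HEK293T 23 to 40. The cause of these shifts was not tested, beyond the fewer libraries in a fit. Signs turned for RPLP2 with Ribo-Zero Gold (-0.285 to 0.0391 with 1 library left out) and RPL22 with RiboCop (-0.0209 to 0.377). Both turned without the second undepleted HEK293T library. RPL35 with cold elution turned without the first undepleted K562 library (-0.00734 to 0.0906). The fit of all 12 libraries averages Ribo-Zero Plus with and without additions, and the median of all genes in it was -0.43. There RPL13A (-0.0626), RPL39 (-0.269) and RPLP2 (-0.031) had the opposite sign to the plain library. The SD of the log2 level per kilobase was 0.68 in HEK293T and 0.61 in K562 with trimmed length, 0.67 and 0.75 without length, and 0.56 to 0.60 and 0.51 to 0.53 in single libraries. Same-numbered libraries deviated together with correlations of 0.06 to 0.14 in HEK293T and -0.05 to 0.02 in the K562 kit table, which was not taken as pairing, though a small shared component in HEK293T is possible. With the replicate block 14 members passed with NEBNext in HEK293T, 2 with cold elution and 0 with each other kit. No paired analysis was possible for Ribo-Zero Plus because its library has no number. Low depth limits the HEK293T and K562 size-selection tables, with a median SE of 0.11 and 0.15 for NEBNext.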
